A study of Mus musculus with 3 samples.

Results

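Plasma cells are the antibody-secreting end stage of the B cell lineage. They made up 54 of the 11640 leukocytes counted from the sciatic nerves of NOD.AIRE GW/+ mice aged 15 weeks. These are the cells to which the authors gave the class name Plasma, which is their cluster 13 of 14, and they were set here beside the 1950 cells of the authors' class B. The mice are on the autoimmune-prone NOD background and carry 1 copy of an Aire allele labelled GW. Aire is the thymic regulator that lets T cells meet tissue antigens before they leave the thymus. Nerves were taken after perfusion of the heart and digested with collagenase, and the CD45+ cells were captured in droplets as 3 libraries of this 1 genotype. Libraries 1 and 2 were read from the 3′ end of the RNA and library 3 from the 5′ end, so anything set by the chemistry cannot be told apart from other differences of library 3. Wild-type nerves were not analysed here, so every comparison runs between cells of the same nerves and genotype has no part in it. The labels do not say whether a library is 1 animal or a pool, so p-values speak for these libraries only.

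When a B cell becomes a plasma cell it turns most of its transcription to immunoglobulin heavy and light chains. A heavy chain has a variable (V) segment, which helps set what the antibody binds, joined to a constant part that sets its class, such as IgM, IgG or IgA. The transcription factors Prdm1, Xbp1 and Irf4 drive the change, and Xbp1 enlarges the endoplasmic reticulum (ER), where antibody chains are folded, given sugars and passed to the Golgi. Plasma cells live on signals from the tissue around them, and in inflamed tissue they are a local source of antibody.

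The V segments of the 26 plasma cells of library 3 that shared a heavy V segment are shown first, since the count of cells by segment rests on telling them from related segments. Each is the coding sequence of the germline gene in GENCODE vM21 (build GRCm38, also named mm10), 5′ to 3′, with capitals at the bases that differ from the most alike other segment in that annotation; its last 300 bases are printed. Ighv8-12 lies at chr12:115647945-115648387 on the minus strand and is 94.7% identical to Ighv8-9 over its 358 bases. Igkv3-4 lies at chr6:70671788-70672377 on the plus strand and is 94.2% identical to Igkv3-3 over 359 bases. Igkv6-13 lies at chr6:70457501-70458036 on the minus strand and is 90.8% identical to Igkv6-23, which has 347 bases against its 359.
Ighv8-12: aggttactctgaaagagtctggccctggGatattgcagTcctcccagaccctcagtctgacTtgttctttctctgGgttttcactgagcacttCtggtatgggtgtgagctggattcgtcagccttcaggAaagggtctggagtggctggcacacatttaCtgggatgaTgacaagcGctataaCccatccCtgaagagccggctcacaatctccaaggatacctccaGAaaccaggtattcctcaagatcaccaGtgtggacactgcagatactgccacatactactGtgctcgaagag
Igkv3-4: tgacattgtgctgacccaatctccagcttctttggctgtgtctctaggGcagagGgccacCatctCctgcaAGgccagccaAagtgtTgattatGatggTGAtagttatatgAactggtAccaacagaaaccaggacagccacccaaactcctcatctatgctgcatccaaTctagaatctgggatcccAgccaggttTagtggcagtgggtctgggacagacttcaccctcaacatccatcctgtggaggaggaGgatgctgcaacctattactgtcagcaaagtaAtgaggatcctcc
Igkv6-13: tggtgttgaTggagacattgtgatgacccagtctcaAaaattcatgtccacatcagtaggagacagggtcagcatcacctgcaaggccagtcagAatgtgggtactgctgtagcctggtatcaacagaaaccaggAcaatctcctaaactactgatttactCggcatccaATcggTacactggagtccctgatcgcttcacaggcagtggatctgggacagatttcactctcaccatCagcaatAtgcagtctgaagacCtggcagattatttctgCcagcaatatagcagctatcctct

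Plasma cells were rare in all 3 libraries, which hold 22587246, 11398628 and 13791264 UMIs (unique molecular identifiers, each standing for 1 captured RNA molecule). They were 7 of 6033 cells in library 1 (0.116%, exact 95% binomial interval 0.0467 to 0.239), 12 of 2333 in library 2 (0.514%, 0.266 to 0.897) and 35 of 3274 in library 3 (1.07%, 0.746 to 1.48), a mean of 0.566 ± 0.479% (SD, n = 3). Of the plasma and B cells together they were 0.482% (0.194 to 0.990), 11.9% (6.29 to 19.8) and 7.78% (5.48 to 10.7) in libraries 1, 2 and 3. The share thus differed between libraries by more than counting error. The authors' name for library 1, and for no other, ends in pos, whose meaning is not given in the sources used here, and whether it marks another selection of cells was not tested. The intervals cover counting error only. Ptprc, which encodes CD45, was at 282, 80.3 and 137 counts per 1000000 (CPM) in plasma cells and at 922, 430 and 540 CPM in B cells of libraries 1, 2 and 3 (log2 fold change -2.03 ± 0.26 SE, adjusted p = 2.85e-07, edgeR). These are shares of RNA and not levels of the surface protein on which cells were sorted. No deposited cell has more than 2997 detected genes, and 44.4% of plasma cells against 2.62% of B cells have at least 2500. Whether the sort or an upper limit on genes changed the plasma cell shares was not tested. Plasma cells had a median of 23630 UMIs and 2448.5 genes per cell, against 3113.5 UMIs and 1159.5 genes in B cells.

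The markers of the label were found in most plasma cells. This is no test of the label, since the authors drew the classes from the same counts. Jchain, which encodes the chain that joins IgA and IgM into polymers, had a UMI in all 54 plasma cells. Mzb1, an ER protein that helps assemble secreted antibody, and Xbp1 each had one in all but 1 cell. It was the same cell for both, of library 3 and with 1953 UMIs. Derl3, a channel component that returns misfolded proteins from the ER, had one in 7 of 7, 9 of 12 and 32 of 35 plasma cells of libraries 1, 2 and 3. The share of B cells with a Jchain UMI was 3.80%, 12.4% and 13.7%, and that of CD4 T cells, which do not make it, was 2.41%, 0.893% and 10.4%. Those CD4 T cells had median depths of 2384.5, 3473.5 and 1920.5 UMIs, and the B cells 2869.5, 4445 and 4198. The share in B cells was above that in CD4 T cells in each library, and the B cells were deeper in each. It was not above every class. In library 3 the share was 18.8% in the class Mixed (median 4277 UMIs) and 23.3% in pDC (7751.5 UMIs). There it was 13.3% in Treg (3545 UMIs) and lower still in Cd8, gdT/NK/NKT, Mac and cDC. In library 1 Mixed (5.05%) and pDC (4.90%) were also above B cells.

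Markers of other leukocytes were lower in plasma cells than in the class they mark, in every library. The summed level of the T cell markers was 788, 29.9 and 372 CPM in plasma cells of libraries 1, 2 and 3, against 6978, 8177 and 7364 CPM in CD4 T cells. That of the macrophage markers was 37.5, 22.5 and 20.8 CPM in plasma cells, against 38861, 79967 and 13700 CPM in the class Mac, with 9, 7 and 7 of 10 genes at 0 in plasma cells. The NK cell markers summed to 37.5, 44.9 and 41.7 CPM in plasma cells and to 1985, 1377 and 3063 CPM in the class gdT/NK/NKT. The markers of conventional dendritic cells summed to 37.5, 82.3 and 65.5 CPM in plasma cells and to 680, 1296 and 1192 CPM in the class cDC. Those of plasmacytoid dendritic cells summed to 957, 1183 and 1477 CPM in plasma cells, most of it from Bst2 and Tcf4, and to 13275, 15644 and 14845 CPM in the class pDC. Of nerve markers only Pecam1 and Mbp had UMIs (20 and 5), and no red cell or granulocyte marker had any. Scrublet called 84 of the 11640 cells doublets and none of them was a plasma cell, but 7 plasma cells held at least 3 UMIs of T cell or macrophage markers (2 in library 1 and 5 in library 3). Without these 7 cells the immunoglobulin share of plasma cells was 54.3% and the class-switched share 95.7%. Ighv8-12 was the segment of 70.0% of library 3 plasma cells, and 1043 genes were higher and 1839 lower than in B cells, each close to its value below.

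Immunoglobulin RNA made up about as much of a plasma cell's UMIs as all other genes together. It took 46.2%, 50.6% and 66.0% of plasma cell UMIs in libraries 1, 2 and 3 (mean 54.3 ± 10.4%, SD, n = 3), against 0.854%, 1.23% and 1.23% of B cell UMIs (1.10 ± 0.217%, n = 3). Single cells of the 2 classes did not overlap in library 1 but did in libraries 2 and 3: plasma cells ran from 7.68% to 65.7% in library 1, 25.4% to 74.9% in library 2 and 20.9% to 86.2% in library 3, and the highest B cells were at 3.93%, 26.8% and 56.1%. The lowest plasma cells of libraries 1 and 3 were the 2 IgM cells, of 4481 and 1953 UMIs. In the other 7 classes tested below the share lay between 0.00805% and 0.309%. The plasma cells, though rare, held 49.7%, 94.7% and 95.6% of all immunoglobulin UMIs of their libraries.

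**Figure D1:**
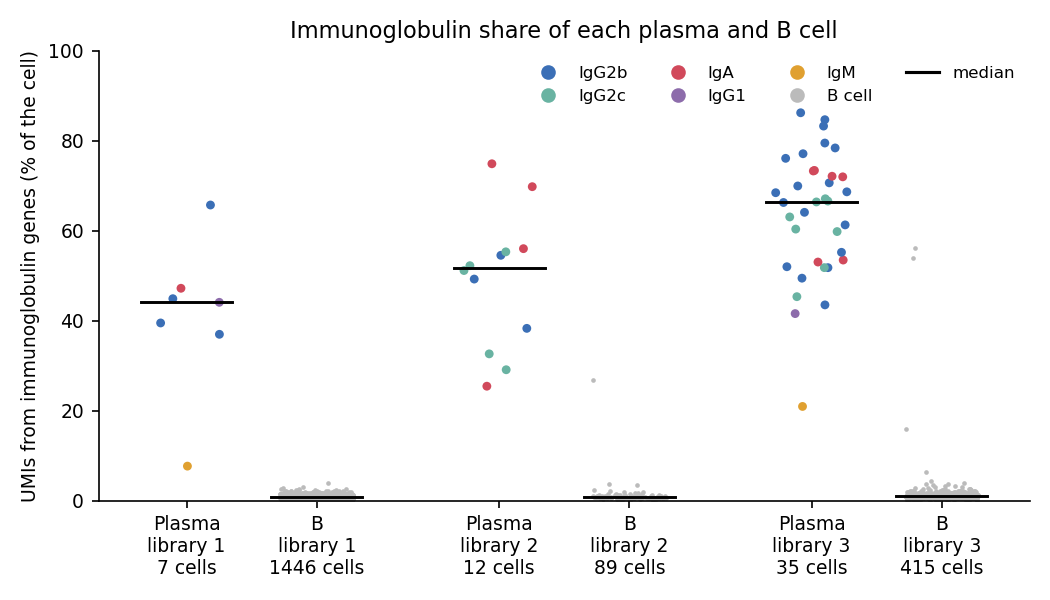
Percent of each cell's UMIs that came from immunoglobulin genes, for plasma cells (left in each pair, coloured by heavy chain class) and B cells (right), by library, with the median as a line. Plasma cells of library 3 sit highest, with a median of 66.4%, against 44.1% in library 1 and 51.7% in library 2.

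Nearly all plasma cells had switched class, and the IgG2 classes led. A cell was given the class of the constant gene with at least 50% of its heavy chain constant UMIs, of which it needed at least 10. By this rule 26 of the 54 cells were IgG2b (48.1%, exact 95% interval 34.3 to 62.2), 13 were IgG2c (24.1%, 13.5 to 37.6) and 11 were IgA (20.4%, 10.6 to 33.5). Of the rest, 2 were IgG1 and 2 were IgM, and none was IgG3 or IgD. Here and below, intervals on cells pooled over libraries cover counting error only and take cells as independent. Of the 54 cells, 35 were of library 3. The calls were clear: the leading constant gene held a median of 99.4% of a cell's heavy chain constant UMIs, at least 82.1% in every plasma cell and at least 90% in 52 of 54. Switched cells were thus 52 of 54 plasma cells (96.3%, 87.3 to 99.5), against 50 of the 414 B cells with enough UMIs for a call (12.1%, 9.10 to 15.6). Most of those 414 B cells were of library 1: the share was 30 of 360 in library 1 (8.33%), 15 of 38 in library 2 (39.5%) and 5 of 16 in library 3 (31.3%), and 37.0% without library 1. The other B cells held too few UMIs for a class.

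The classes were spread unevenly over the libraries. IgG2b was called in 4, 3 and 19 plasma cells of libraries 1, 2 and 3, IgG2c in 0, 5 and 8, and IgA in 1, 4 and 6. The IgG1 and IgM cells were in libraries 1 and 3. Without the 7 doubtful cells IgA was 9 of 47 (19.1%). By the constant genes the light chain was kappa in 53 of 53 plasma cells with a call (lambda 0%, up to 6.72%), against 1244 of 1291 B cells (96.4%). The light V segments did not all match this: Iglv1, a lambda segment, was called in 2 of 4 plasma cells of library 1 and in 5 of 10 of library 2, where 28 and 4 of the 85 kappa V rows of the table have a UMI.

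Where the reads fell within the immunoglobulin genes differed with the library type. In the 3′ libraries 98.4% and 98.7% of plasma cell immunoglobulin UMIs were of constant genes and 1.60% and 1.27% of V segments (libraries 1 and 2). In the 5′ library 7.69% were of constant genes and 92.3% of V segments. Igkc, the kappa constant gene, took 67.6%, 75.5% and 3.74% of plasma cell immunoglobulin UMIs in libraries 1, 2 and 3. Ighg2b took 21.5%, 8.27% and 2.01% and Igha, the IgA constant gene, 5.08%, 8.58% and 0.581%. Ighg2c held 5.50% in library 2 and 0.908% in library 3, and Ighg1 held 2.88% in library 1. Only library 3 therefore reads V segments in depth.

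In library 3 most plasma cells used the same V segments. Ighv8-12 was the heavy V segment of 26 of 35 plasma cells (74.3%, 56.7 to 87.5), against 4 of the 180 B cells of that library with a call (2.22%, 0.609 to 5.59). In each of the 26 cells it held at least 99.9% of the heavy V UMIs, of which a cell had between 1096 and 12952. The cells were of 3 classes: 15 IgG2b, 5 IgG2c and 6 IgA, which is every IgA cell of the library. The other 9 plasma cells each used another segment, 9 different ones. The most common heavy V segment among the B cells was Ighv2-2, in 15 of 180 cells (8.33%), and these B cells used 51 different segments.

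Most of these cells shared a light chain segment too. Igkv3-4 was the light V segment of 20 of the 31 plasma cells of library 3 with a call (64.5%, 45.4 to 80.8). All 20 paired it with Ighv8-12, in 11 IgG2b, 5 IgG2c and 4 IgA cells. In them Igkv3-4 held 88.7% to 98.4% of the light V UMIs. Igkv6-13 led in the other 6 cells with Ighv8-12 (4 IgG2b and 2 IgA), at 44.0% to 53.2% of their light V UMIs, and passed 50% in 3. Among B cells of the library, 135 had both segments called, and they made 122 different pairs. These values rest on 1 library and have no replicate.

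In libraries 1 and 2 the V segments that could be read were other ones. In library 2 Ighv5-4 was called in 7 of the 8 plasma cells with enough V UMIs (87.5%), 1 IgG2b, 2 IgG2c and 4 IgA, and 4 cells had no call. In library 1 Ighv1-80 was called in 3 of 6. These shares do not describe the whole repertoire. Of the 71 heavy V rows of the table, 69 have a UMI in library 3, but 35 in library 1 and 2 in library 2, on totals of 202455, 569 and 318 UMIs. Ighv8-12, Igkv3-4 and Igkv6-13 are listed at 0 in every cell of libraries 1 and 2. In each library fewer genes have a UMI in exactly 1 cell (70, 64 and 273) than in exactly 3 cells (514, 484 and 561), so a gene seen in few cells of a library may be listed at 0, and these zeros do not show absence.

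Further limits bear on the V segments of library 3. Segments are named from the annotation of another mouse strain than NOD, so a name stands for the nearest annotated segment. The table holds no junction sequences, so whether these cells stem from 1 precursor was not measured. The same segments were read in cells of other classes, and whether they came from free RNA was not tested. CD4 T cells of library 3 held 603 heavy V UMIs, of which 359 (59.5%) were Ighv8-12. Of their 1549 light V UMIs, 999 (64.5%) were Igkv3-4. The share of Ighv8-12 was 69.8% of the 196258 heavy V UMIs in the plasma cells. The next segments in the CD4 T cells were Ighv1-82 (107 UMIs, 17.7%) and Igkv12-44 (346 UMIs, 22.3%). In plasma cells these held 0.124% of heavy and 0.0414% of light V UMIs, and each was called in 1 cell. The V UMIs of CD4 T cells thus mirror those of the plasma cells only in part, and the cause was not tested.

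**Figure D2:**
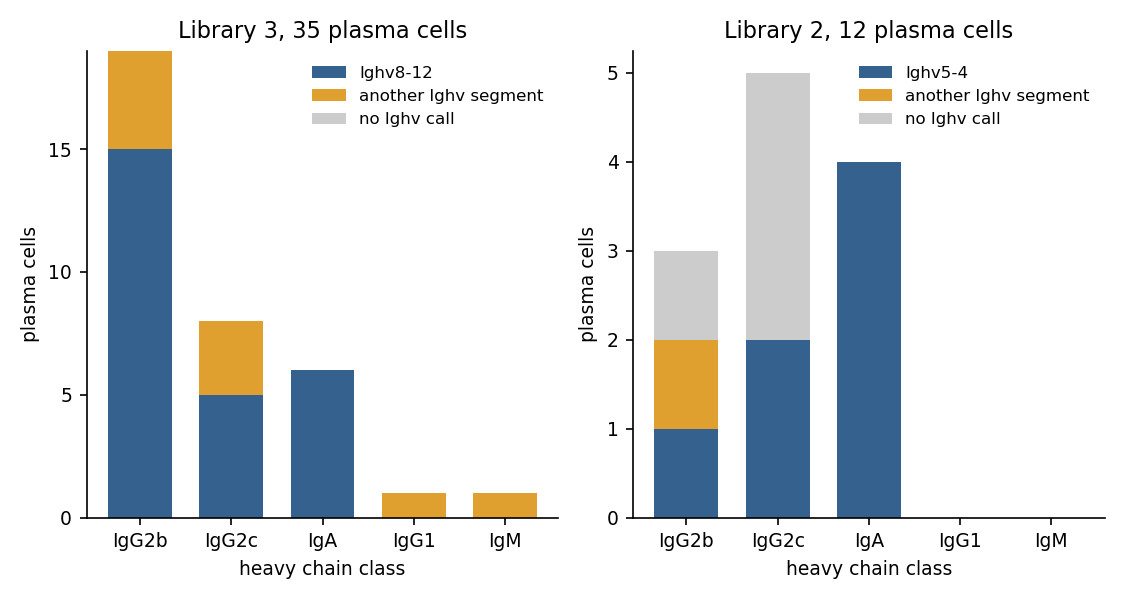
Number of plasma cells by heavy chain class and heavy V segment, in library 3 (Ighv8-12 against any other segment) and in library 2 (Ighv5-4, any other segment, no call). In library 3 the 26 cells with Ighv8-12 are 15 IgG2b, 5 IgG2c and 6 IgA cells.

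Outside the immunoglobulin genes, plasma cells were higher than B cells in most genes of plasma cell identity and of secretion, and lower in most genes of B cell identity. For each class and library the UMIs of its cells were added up without immunoglobulin genes, and 9 classes were fitted together with the library as a block (edgeR). A gene's spread was estimated over the sums of all 9 classes, so p-values do not measure the spread of the plasma cell sums alone. Levels are CPM of these totals after TMM scaling, SE follows each log2 fold change, and the threshold for a call was an adjusted p of 0.05. Of 11037 genes tested 1133 were called higher in plasma cells than in B cells (10.3%) and 1724 lower (15.6%), 25.9% in all. Against the mean of the other 8 classes 1231 were higher (11.2%) and 1491 lower (13.5%), 24.7% in all. The authors drew the classes from the same counts, so these p-values do not show that plasma cells are a class of their own. The median log2 fold change over all genes was -0.48 against B cells and would be -0.11 with DESeq2 scaling, where 52.3% of calls were higher in place of 39.7%. Changes below are read against that median, and counts of list genes called against the 10.3% higher and 15.6% lower of all genes. Against the mean of the 8 classes the medians were -0.39 and -0.09, and the shares of higher calls 45.2% and, with DESeq2, 56.7%.

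The markers of the label stood far above B cells in every library. Jchain was at 29682, 68066 and 172071 CPM in plasma cells of libraries 1, 2 and 3 and at 23.3, 333 and 59.8 CPM in B cells (log2 fold change 9.15 ± 0.78, adjusted p = 1.24e-10). Mzb1 was at 9878, 16163 and 14629 CPM in plasma cells and at 501, 743 and 454 CPM in B cells (4.61 ± 0.40, adjusted p = 2.42e-10). Xbp1 was at 988, 1999 and 5186 CPM in plasma cells and at 56.5, 33.1 and 90.7 CPM in B cells (5.38 ± 0.30, adjusted p = 8.19e-15). The groups did not overlap for any of the 4 markers, and Jchain and Xbp1 were highest in library 3. How many of all genes likewise do not overlap between plasma and B cells was not counted. Such statements, here and below, therefore only describe the values. Derl3 was at 314, 530 and 1039 CPM in plasma cells and at 1.55, 11.0 and 4.64 CPM in B cells (7.41 ± 0.42, adjusted p = 4.98e-14).

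Of 20 genes of plasma cell identity tested, 17 were higher than in B cells and 1 lower, with a median log2 fold change of 4.50. Some genes, such as Xbp1, Derl3 and Asns, stand in more than 1 of the lists below. Sdc1, the surface proteoglycan CD138 by which plasma cells are stained, was at 157, 634 and 471 CPM in plasma cells and at 1.81, 2.21 and 1.55 CPM in B cells (7.45 ± 0.43, adjusted p = 8.09e-14). Outside the list, Bhlha15, a transcription factor of secretory cells also called Mist1, was at 47.0, 72.3 and 122 CPM in plasma cells, on 46 UMIs in all, and had 1 UMI in all B cells (8.38 ± 0.84, adjusted p = 1.73e-07). DESeq2 did not call it. Tent5c, an RNA polymerase that lengthens the tails of immunoglobulin messages, is listed under that name in library 3 and under its older name Fam46c in libraries 1 and 2. Both names together gave 24, 105 and 293 UMIs in plasma cells (451, 786 and 872 CPM without TMM scaling) and 117, 28 and 71 UMIs in B cells (26.0, 59.2 and 40.4 CPM).

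The factors that set the plasma cell programme varied between libraries. Prdm1, which encodes the repressor Blimp-1, was at 141, 16.1 and 32.4 CPM in plasma cells and at 10.4, 2.21 and 16.0 CPM in B cells (log2 fold change 2.01 ± 0.59, adjusted p = 0.0110), on 20 plasma cell UMIs in all. The call was lost without library 1, and against the mean of the 8 classes the fold change was 0.72 with an adjusted p of 0.322. Irf4 was at 141, 8.03 and 309 CPM in plasma cells and at 152, 79.4 and 141 CPM in B cells (0.60, adjusted p = 0.277), but was higher than in the mean of the 8 classes (2.60, adjusted p = 2.69e-06). Its values thus overlapped between plasma and B cells. Pou2af1, a coactivator of immunoglobulin transcription, was at 392, 201 and 396 CPM in plasma cells and at 140, 108 and 134 CPM in B cells (1.44 ± 0.27, adjusted p = 0.000121). Cd38 was the member that fell, with UMIs only in library 3 in plasma cells (0, 0 and 14.4 CPM) against 250, 110 and 234 CPM in B cells (-4.69 ± 0.99).

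The genes with the largest increases held several secreted products and surface proteins. Prg2, a granule protein best known from eosinophils, was at 486, 594 and 1845 CPM in plasma cells and at 0.259, 6.62 and 0 CPM in B cells (10.30 ± 0.46, adjusted p = 2.51e-16). Slpi, a secreted inhibitor of leukocyte proteases, was at 12606, 22402 and 24724 CPM in plasma cells and at 33.4, 117 and 26.8 CPM in B cells (8.63 ± 0.38, adjusted p = 1.09e-16). Ly6c2, a surface antigen, was at 706, 610 and 597 CPM in plasma cells and at 2.33, 2.21 and 2.06 CPM in B cells (8.24 ± 0.42). Ly6c1 followed with 47.0, 506 and 302 CPM against 0.518, 0 and 0.515 CPM in B cells (8.68 ± 0.65). Pycr1, an enzyme of proline synthesis, was at 31.4, 80.3 and 245 CPM in plasma cells and at 0, 0 and 0.515 CPM in B cells (8.76 ± 0.86), a call that DESeq2 did not make. Gpnmb, a membrane glycoprotein, had 27 UMIs in plasma cells (3, 1 and 23 in libraries 1, 2 and 3) and 0 in B cells. With the libraries pooled this is at least 116-fold higher when 0 is set to a floor of 3 counts over the class. Plasma cell UMIs are mostly of library 3 and B cell UMIs mostly of library 1. Such bounds, here and below, are therefore not matched by library, and a bound within 1 library can be smaller. Not all of these genes set plasma cells apart from other leukocytes. In the class Mac, Ly6c2 averaged 649 CPM, Ly6c1 273 and Gpnmb 62.4, against 638, 285 and 45.9 CPM in plasma cells. Prg2, Slpi and Pycr1 averaged 0.519, 76.3 and 0 CPM in Mac. In the class pDC, which was not fitted, Slpi was at 898, 59.3 and 1236 CPM without TMM scaling in libraries 1, 2 and 3. On that scale plasma cells were at 15093, 20881 and 20469 CPM.

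**Figure D3:**
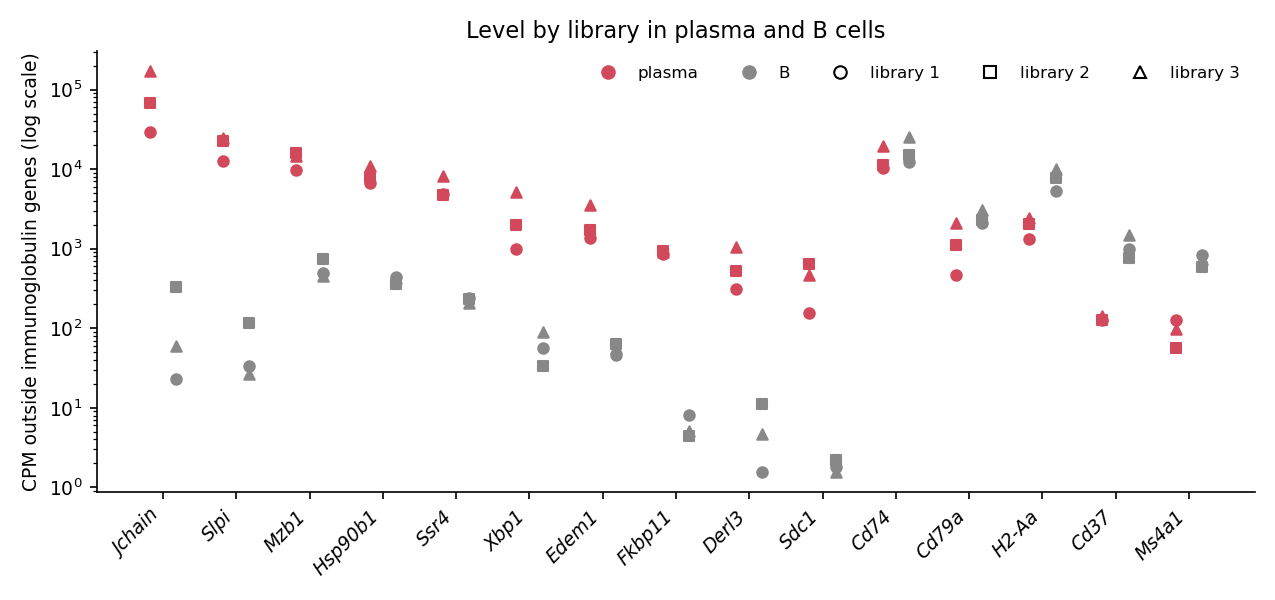
Level of 15 genes (CPM outside immunoglobulin genes, log axis) in plasma cells (left of each pair) and B cells (right), with 1 marker per library. Secretory genes such as Fkbp11 and Ssr4 do not overlap between the classes, while Cd74 overlaps.

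The machinery that brings chains into the ER rose almost as a whole. Of 24 genes of translocation into the ER 22 were higher in plasma cells and none was lower (median log2 fold change 2.45). Ssr4, a subunit of the complex beside the translocation channel, was at 4845, 4753 and 8260 CPM in plasma cells and at 243, 236 and 206 CPM in B cells (4.75 ± 0.23, adjusted p = 4.00e-16). Sec11c, a subunit of the signal peptidase, was at 2415, 3597 and 4028 CPM in plasma cells and at 144, 216 and 142 CPM in B cells (4.37). Neither gene overlapped between the classes. Sec61b, a subunit of the channel itself, was at 2493, 3172 and 3316 CPM in plasma cells and at 307, 318 and 262 CPM in B cells (3.37). Tram2 and Spcs3 each had a log2 fold change of 3.70.

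Enzymes that attach sugars and proteins that fold the chains followed. Of 20 genes of N-glycosylation 16 were higher and none lower (median 1.98), led by Ddost, a subunit of the enzyme that transfers the sugar chain. It was at 423, 931 and 1172 CPM in plasma cells and at 44.3, 57.3 and 82.4 CPM in B cells (3.77). Of 25 chaperones and disulfide enzymes 24 were higher and none lower (median 3.66), the largest median of the lists of secretion. Fkbp11, a folding enzyme that turns proline bonds, was at 862, 931 and 899 CPM in plasma cells and at 8.03, 4.41 and 5.15 CPM in B cells (7.07 ± 0.27). Its plasma cell values were nearly equal in the 3 libraries. Prdx4, a peroxidase of the ER, was at 1098, 1437 and 2125 CPM in plasma cells and at 24.9, 41.9 and 23.7 CPM in B cells (5.89 ± 0.29). Creld2, a resident protein of the ER that stress induces, was at 408, 811 and 2107 CPM in plasma cells and at 23.6, 19.8 and 44.3 CPM in B cells (5.19). The classic chaperones were higher too. Hsp90b1, the ER form of HSP90, was at 6617, 8037 and 10997 CPM in plasma cells and at 436, 359 and 426 CPM in B cells (4.41 ± 0.21). Hspa5, the chaperone BiP that was first described by its binding to heavy chains, was at 2383, 2794 and 2859 CPM in plasma cells and at 470, 375 and 542 CPM in B cells (2.56 ± 0.19).

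Genes of ER-associated degradation, which takes misfolded chains back to the proteasome, were higher in 15 of 20 and lower in none (median 2.25). Beside Derl3, Edem1 was at 1380, 1694 and 3564 CPM in plasma cells and at 45.6, 64.0 and 57.2 CPM in B cells (5.37). Edem2 was at 517, 1028 and 2089 CPM in plasma cells and at 20.0, 26.5 and 46.9 CPM in B cells (5.24). Both trim sugars from proteins that fail to fold, and both were highest in library 3. The lectin Erlec1 had a log2 fold change of 3.51 and Sel1l, which joins the complex that pulls proteins out, one of 3.39.

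The sensors and factors of the unfolded protein response were split. Of 14 genes tested, among them Xbp1 and the target Asns, 7 were higher and 1 lower (median 0.93). Ern1, which encodes the sensor IRE1 that splices Xbp1, was at 31.4, 48.2 and 57.5 CPM in plasma cells and at 1.81, 0 and 11.3 CPM in B cells (3.11 ± 0.59). Eif2ak3, which encodes the sensor PERK, rose by a log2 fold change of 1.82, and Atf4, a factor below it, by 1.31. Atf6, the other sensor, had a fold change of 1.35, a call lost without library 3. Creb3l2, a membrane-bound factor of secretory cells, rose to 141, 185 and 108 CPM in plasma cells against 4.66, 2.21 and 5.67 CPM in B cells (4.75). Ddit3, the factor CHOP linked to death under ER stress, was at 0, 145 and 46.8 CPM in plasma cells and at 61.1, 55.1 and 39.7 CPM in B cells (0.55, adjusted p = 0.437). Ppp1r15a, which reverses the translation arrest set by PERK, was the member that fell (-1.04).

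Transport from ER to Golgi rose in 29 of 33 genes (median 1.82). Lman1, the cargo receptor for glycoproteins, was at 800, 1004 and 1194 CPM in plasma cells and at 35.8, 26.5 and 29.9 CPM in B cells (5.04 ± 0.20, adjusted p = 1.23e-17). Sec24d, a coat subunit that picks cargo, had a log2 fold change of 4.07 and Arfgap3, a regulator of coats, one of 3.92. Kdelr3, a receptor that returns ER proteins, had 11 UMIs in plasma cells and 0 in B cells, at least 47.2-fold higher. Golga5 was the member that fell (-1.38), a call lost under several alternatives. Of 17 genes of amino acid supply 10 were higher and 1 lower (median 1.91). Asns, asparagine synthetase, was at 31.4, 169 and 50.3 CPM in plasma cells and at 1.04, 0 and 1.55 CPM in B cells (5.98). Slc7a5, a carrier of large amino acids, had a fold change of 2.95, and Slc38a1, a glutamine carrier, was the member that fell (-1.51).

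**Figure D4:**
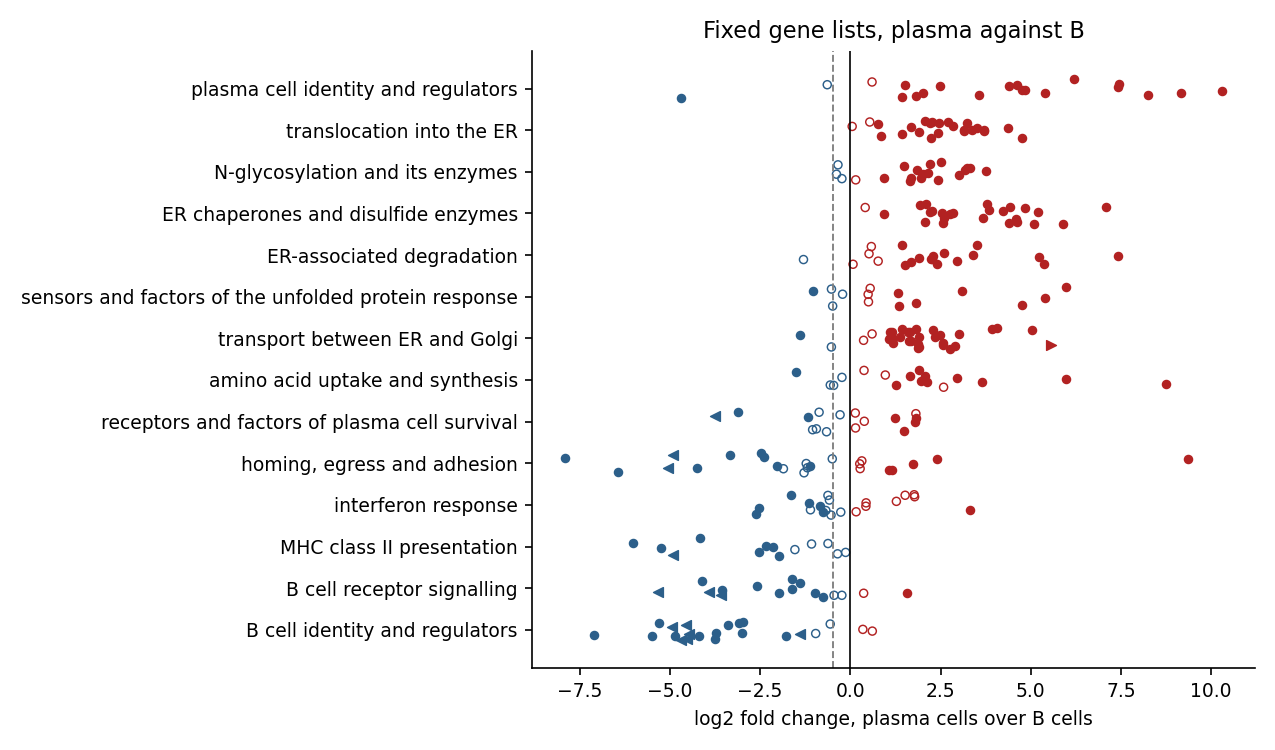
Log2 fold change of plasma cells against B cells for the genes of 14 lists, 1 point per gene, filled where called at an adjusted p under 0.05. Triangles mark genes with 0 UMIs in 1 class, placed at the bound that a floor of 3 counts gives over the pooled libraries. The dashed line is the median of all genes (-0.48).

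Set against the mean of the other 8 classes, the same lists gave 22 of 24 genes of translocation, 16 of 20 of N-glycosylation, 24 of 25 chaperones, 15 of 20 genes of degradation and 29 of 33 of transport higher, and none lower. Of the 14 genes of the unfolded protein response 6 were higher and 1 lower. Both comparisons use the same plasma cell sums.

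The lists of secretion hold known targets of the unfolded protein response, so promoters were searched for its elements. Each promoter is the stretch from 250 bases before to 50 after the RefSeq start (GRCm38.p6). The ER stress element, spelled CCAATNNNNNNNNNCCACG and searched on both strands, was in 7 of 20 promoters of chaperones (35%) and in 2 of 16 of ER-associated degradation (12.5%). It was in 37 of all 27025 promoters (0.137%) and in 14 of 8567 promoters of genes tested (0.163%). None of the promoters of translocation (17), glycosylation (17), the response's own factors (14) or transport (29) held these letters. The element TGACGTGG was in 5 of 29 promoters of transport (17.2%), 2 of 16 of ER-associated degradation (12.5%), 2 of 18 of plasma cell identity (11.1%), 2 of 20 of chaperones (10.0%) and none of the other lists of secretion. It was in 93 of 8567 promoters of genes tested (1.09%) and in 193 of all 27025 (0.714%). The match is of letters only and is no measure of binding. Since the lists hold known targets of the response, these shares are no independent test of the elements. The 3 promoters below are of genes with values above and hold the ER stress element in capitals. That of Hspa5 lies at chr2:34771840-34772139 on the plus strand, that of Hsp90b1, with 2 matches, at chr10:86705395-86705694 on the minus strand, and that of Creld2 at chr15:88819396-88819695 on the plus strand.
Hspa5: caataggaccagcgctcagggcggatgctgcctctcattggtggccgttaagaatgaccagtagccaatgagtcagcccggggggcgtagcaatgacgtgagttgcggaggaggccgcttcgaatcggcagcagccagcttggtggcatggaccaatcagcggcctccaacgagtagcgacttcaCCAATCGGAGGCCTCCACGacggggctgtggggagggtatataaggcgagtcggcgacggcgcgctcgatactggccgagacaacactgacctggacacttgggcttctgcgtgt
Hsp90b1: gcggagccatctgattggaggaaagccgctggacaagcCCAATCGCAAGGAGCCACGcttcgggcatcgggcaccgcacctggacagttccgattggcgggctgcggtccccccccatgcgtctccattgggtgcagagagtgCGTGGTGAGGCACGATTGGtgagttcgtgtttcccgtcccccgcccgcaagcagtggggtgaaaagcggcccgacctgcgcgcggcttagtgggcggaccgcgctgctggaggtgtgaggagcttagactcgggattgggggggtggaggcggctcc
Creld2: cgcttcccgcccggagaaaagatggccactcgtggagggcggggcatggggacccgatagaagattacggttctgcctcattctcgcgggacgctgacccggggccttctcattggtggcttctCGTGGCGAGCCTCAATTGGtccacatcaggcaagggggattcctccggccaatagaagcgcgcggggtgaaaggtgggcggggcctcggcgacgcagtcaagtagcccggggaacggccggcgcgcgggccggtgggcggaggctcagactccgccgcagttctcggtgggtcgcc

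The B cell programme was low in plasma cells, but not all of it. Of 22 genes of B cell identity 18 were lower and none higher than in B cells (median log2 fold change -3.98, or -3.75 with the 6 genes that have no plasma cell UMI at their bound), while 7 were higher and 4 lower than in the mean of the 8 classes, B cells among them. Ms4a1, which encodes CD20, was at 125, 56.2 and 97.1 CPM in plasma cells and at 842, 587 and 747 CPM in B cells (-2.99 ± 0.34, adjusted p = 8.55e-08). Pax5, the factor that maintains B cell identity, had 1 UMI in plasma cells against 289, 92.6 and 60.8 CPM in B cells (-5.49 ± 0.74), a call DESeq2 did not make. Ebf1, which acts beside Pax5, was at 0, 56.2 and 71.9 CPM in plasma cells and at 1440, 1262 and 864 CPM in B cells (-4.20). Cd79a and Cd79b, the signalling chains of the receptor, missed the threshold. Cd79a was at 470, 1100 and 2093 CPM in plasma cells and at 2101, 2289 and 3022 CPM in B cells (-0.96, adjusted p = 0.144). Cd79b was at 235, 361 and 514 CPM in plasma cells and at 692, 507 and 669 CPM in B cells (-0.56, adjusted p = 0.248).

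Many genes found in B cells had no UMI at all in the 522759 plasma cell UMIs outside immunoglobulin genes. Their fold is given as a bound against a floor of 3 counts, with the libraries pooled and so not matched. Among them Cd72 and Cd22, inhibitory receptors, were at least 40.1-fold and 30.6-fold lower. Bach2, a repressor that holds back the plasma cell fate, was at least 23.3-fold lower, Bcl11a 23.1-fold and Spib 22.2-fold. Fcer2a, the low-affinity IgE receptor, was at least 25.7-fold lower and Cd40, the receptor for T cell help, 13.3-fold. Rasgef1b was at least 27.2-fold lower and Tmem243 17.5-fold. Some of these genes are not particular to B cells. Rasgef1b averaged 140 CPM in B cells, 143 in the class cDC and 142 in the class Mac. Cd72 averaged 236 CPM in B cells and 345 in Mac, and Tmem243 120 CPM in B cells and 71.6 in the class gdT/NK/NKT. Fcmr, the IgM receptor, had 1 UMI in plasma cells against 2350 in B cells (log2 fold change -7.11 ± 0.83). Of 16 genes of B cell receptor signalling 12 were lower and 1 higher (median -1.61). Ptpn6, an inhibitory phosphatase, had a fold change of -4.11, the kinase gene Prkcb one of -3.55 and the kinase gene Lyn one of -2.60. Pik3ap1, an adaptor to PI3 kinase, was at least 11.9-fold lower. Cd81, a tetraspanin of the B cell surface, was the member that rose, to 329, 410 and 601 CPM in plasma cells against 120, 141 and 207 CPM in B cells (1.58).

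Genes of MHC class II presentation fell in part. Of 13 genes 8 were lower and none higher (median -2.13). Ciita, the regulator of the whole set, had no UMI in plasma cells and was at least 30.3-fold lower. Cd74, the invariant chain, was at 10474, 11386 and 19606 CPM in plasma cells and at 12329, 15022 and 25323 CPM in B cells (-0.35, adjusted p = 0.670). H2-Ab1 was at 2038, 2023 and 1528 CPM in plasma cells and at 4163, 4861 and 2896 CPM in B cells (-1.07, adjusted p = 0.175). For scale, CD4 T cells averaged 102 CPM of Cd74 and 44.2 CPM of H2-Ab1. H2-Aa was at 1333, 2031 and 2402 CPM in plasma cells and at 5293, 7818 and 9952 CPM in B cells (-1.98 ± 0.59, adjusted p = 0.0126), a call not made by DESeq2, without the block or without library 3. H2-Eb1 was at 1082, 1341 and 1223 CPM in plasma cells and at 4451, 6363 and 5296 CPM in B cells (-2.13 ± 0.53). The steepest falls were in H2-Oa (-6.02), H2-DMb2 (-5.26) and H2-Ob (-4.16), which encode chains of the proteins that load peptides and restrain that loading.

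Receptors and factors of plasma cell survival were called in both directions, with 4 of 16 higher and 3 lower (median -0.07), against 10.3% and 15.6% of all genes. Tnfrsf17, which encodes BCMA, the receptor for the survival factor APRIL, had 36 UMIs in plasma cells (0, 7 and 29 in libraries 1, 2 and 3) and none in B cells. It was too low to be tested. The gene is listed at 0 in every cell of library 1, and by the summed UMIs of libraries 2 and 3 it was at least 57.0-fold higher. Tnfrsf13b, which encodes TACI, was at 125, 169 and 230 CPM in plasma cells and at 89.1, 101 and 73.7 CPM in B cells (1.24), a call lost without library 3. Tnfrsf13c, the receptor for BAFF on B cells, was at 0, 177 and 158 CPM in plasma cells and at 363, 223 and 198 CPM in B cells (-0.86, adjusted p = 0.0613). Cd28, which supports plasma cells through CD80 and CD86, was at 125, 145 and 209 CPM in plasma cells and at 47.7, 13.2 and 70.1 CPM in B cells (1.82, adjusted p = 0.0271). That call was lost without the block, without library 1 and without library 2, and plasma cells of libraries 1 and 3 also held T cell markers, whose part in it was not tested. Mcl1, the survival protein plasma cells depend on, was at 470, 418 and 147 CPM in plasma cells and at 458, 351 and 129 CPM in B cells (0.14, adjusted p = 0.706). Cd44 (1.79) and Ccnd2 (1.48) were higher, and Il21r, the receptor for interleukin 21, was lower (-3.12).

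Of 23 genes of homing and egress 5 were higher and 10 lower than in B cells (median -1.22), against 10.3% and 15.6% of all genes. Ccr10, the receptor for the epithelial chemokines CCL27 and CCL28, had 9, 17 and 62 UMIs in plasma cells (141, 137 and 223 CPM) and 1 UMI in all B cells (9.35 ± 0.75, adjusted p = 5.65e-10). Cxcr3, the receptor for interferon-induced chemokines, was at 110, 201 and 223 CPM in plasma cells and at 22.3, 41.9 and 40.7 CPM in B cells (2.41 ± 0.33). Neither receptor overlapped between the classes. The integrin gene Itgal (1.74), its partner Itgb2 (1.06) and the selectin ligand Selplg (1.16) were higher, while Itga4 (0.27, adjusted p = 0.576) and Itgb7 (0.26, adjusted p = 0.626), which form the gut-homing integrin, did not pass the test. Cxcr4, which holds plasma cells in bone marrow, was at 15.7, 64.2 and 21.6 CPM in plasma cells and at 288, 609 and 133 CPM in B cells (-3.33), a call lost without the block. The receptors that guide B cells to lymphoid tissue were at or near 0. Ccr7 had 2 UMIs in plasma cells against 5741 in B cells (-7.90 ± 1.19) and Ccr6 1 against 1225 (-6.44). Cxcr5 was at least 33.0-fold lower. S1pr1, the receptor for exit into lymph and blood, was at 47.0, 24.1 and 0 CPM in plasma cells and at 284, 192 and 269 CPM in B cells (-4.24), and Klf2, which drives it, fell with it (-2.39).

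Of 17 genes of cytokines and inhibitory ligands 2 were higher and 5 lower (median -1.73, or -0.81 with 4 genes of no plasma cell UMI at their bound). Of all genes 10.3% were higher and 15.6% lower. Pdcd1lg2, which encodes PD-L2, was at least 4.09-fold lower and Lta, a lymphotoxin chain, at least 2.66-fold lower. Cxcl10, a chemokine that binds CXCR3, was at 0, 40.1 and 313 CPM in plasma cells and at 8.81, 2.21 and 3.09 CPM in B cells (4.70), a call lost without library 3. Cd274, which encodes PD-L1, was at 94.1, 96.4 and 277 CPM in plasma cells and at 64.5, 92.6 and 101 CPM in B cells (1.07). Il10 was at 0, 0 and 46.8 CPM in plasma cells and at 16.3, 0 and 26.8 CPM in B cells (0.54, adjusted p = 0.731). Tgfb1 was lower (-1.84). Of 20 interferon-response genes 1 was higher and 6 lower (median -0.56), beside the same shares of all genes. Bst2, which tethers viruses at the cell surface, was the one that rose, to 486, 723 and 1403 CPM in plasma cells against 65.0, 81.6 and 116 CPM in B cells (3.30). Gbp7 (-2.62) and Socs1 (-2.52) were among those that were lower.

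Genes of the germinal centre and of division were called about as often as all genes, of which 10.3% were higher and 15.6% lower. Of 9 germinal centre genes tested 1 was higher, Fas (1.62), and 1 lower, Bcl6 (-2.98), on 1 plasma cell UMI. Of 30 cell cycle genes 3 were higher and 3 lower (median 0.24). Mki67 was at 47.0, 32.1 and 36.0 CPM in plasma cells and at 9.07, 11.0 and 5.15 CPM in B cells (2.63), a call lost without the block, without the doubtful cells and without library 3. Depth was then made equal by drawing 2000 UMIs outside immunoglobulin genes from each cell, which left out 3 plasma cells and 175, 1 and 61 B cells of libraries 1, 2 and 3. At least 3 UMIs of the cell cycle list were then found in 4 of 51 plasma cells (7.84%, 2.18 to 18.9) and in 387 of 1713 B cells (22.6%, 20.6 to 24.6). By library the shares were 1 of 7, 1 of 12 and 2 of 32 plasma cells, and 19.2%, 17.0% and 36.2% of B cells. Before depth was made equal they were 71.4%, 66.7% and 71.9% of plasma cells and 41.0%, 72.7% and 78.2% of B cells. These shares are no measure of dividing cells, since Hmgb2, Tubb5 and Tuba1b, which other cells also express, gave 52.2% of the list's UMIs in plasma cells and 65.8% in B cells. At all depths, 3 of 7, 3 of 12 and 8 of 35 plasma cells had a Mki67 UMI, against 2.07%, 4.49% and 2.17% of B cells, which are far shallower.

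Within the plasma cells, those of IgA and those of IgG were compared by summing their UMIs per library. This comparison was chosen after the values were seen, and library 1 gives it a single IgA cell, which also held 21 UMIs of T cell markers. Of 672 genes tested edgeR called none (0% at an adjusted p under 0.05, lowest 0.122), with 48 at an unadjusted p under 0.05. The sums of the libraries did not overlap for 62 genes (9.23%), of which 32 were higher in IgA cells. Jchain was at 88993, 152866 and 296630 CPM in IgA cells of libraries 1, 2 and 3 and at 27824, 22388 and 107922 CPM in IgG cells (1.96 ± 0.52, adjusted p = 0.290). It was above the IgG cells in each library, with overlap between libraries. Txndc5, a disulfide enzyme of the ER, was at 2656, 4633 and 4678 CPM in IgA cells and at 265, 321 and 1552 CPM in IgG cells (2.73 ± 0.43, adjusted p = 0.122). Ccr10 was at 845, 275 and 366 CPM in IgA cells and at 48.3, 56.6 and 145 CPM in IgG cells (1.94 ± 0.47, adjusted p = 0.290). Slpi was at 3622, 5159 and 16380 CPM in IgA cells and at 18606, 24379 and 22067 CPM in IgG cells (-1.63 ± 0.41, adjusted p = 0.290). H2-Eb1 was at 845, 551 and 472 CPM in IgA cells and at 1472, 1368 and 1172 CPM in IgG cells (-1.20, adjusted p = 0.228). None of these differences passed the threshold. All 6 IgA cells of library 3 used Ighv8-12 and all 4 of library 2 used Ighv5-4, while IgG cells used these and other segments. Heavy chain class thus goes in part with the V segment, and the 2 were not separated.

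**Figure D5:**
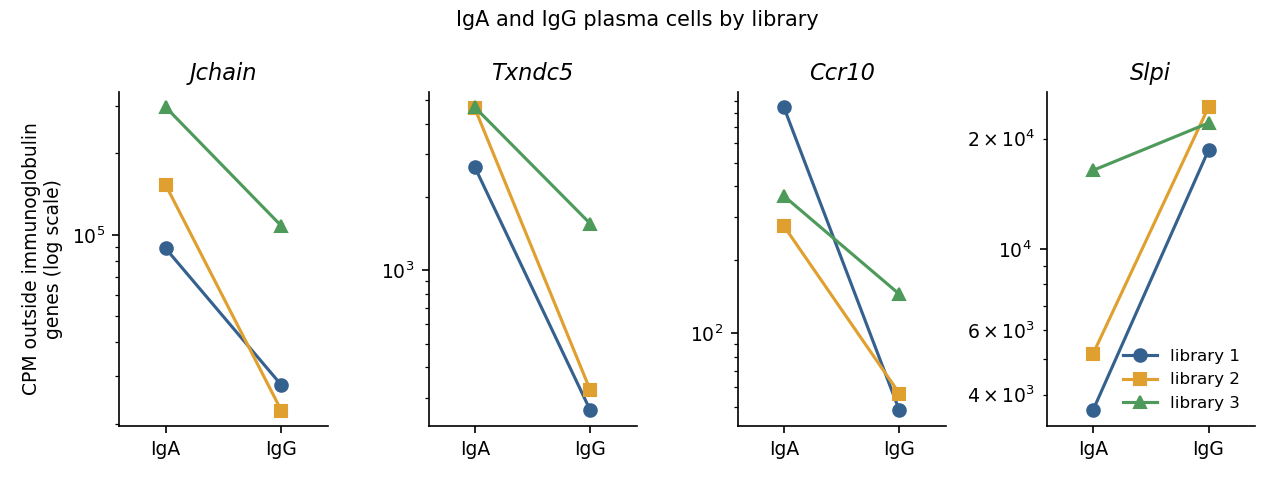
Level of Jchain, Txndc5, Ccr10 and Slpi (CPM outside immunoglobulin genes, log axis) in IgA plasma cells (left) and IgG plasma cells (right), 1 line per library. The first 3 genes are higher in IgA cells and Slpi is higher in IgG cells in each of the 3 libraries, on 1, 4 and 6 IgA cells and 5, 8 and 28 IgG cells.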

How the data were processed

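CD45+ sciatic nerve cells were counted in droplet libraries, 3 in all. Deposited were unscaled UMI counts per gene and cell, and the authors' cell table gives each cell's class, mitochondrial percent and cell cycle score. Deposited cells had passed the authors' filters on genes and mitochondrial percent, as the values show, and all were kept. The submitters' processing notes name Seurat 4.0, Cell Ranger 5.0.1 and the build mm10, without roles.

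UMIs were summed per class and library without 172 immunoglobulin genes, which were described as shares. Sums of 9 classes (pDC, with 2 cells in library 2, left out) were tested with edgeR 4.0.16 in R 4.3.3: TMM, filterByExpr, quasi-likelihood F-test, library as a block, Benjamini-Hochberg under 0.05. Both classes of a pair come from the same library, and their deviations correlate at 0.273, 0.268 and 0.490. Plasma cells had 53268, 133613 and 335878 UMIs outside immunoglobulin genes in libraries 1, 2 and 3, and B cells 4505831, 473022 and 1756901. No barcode shared between libraries (6 in all) was of a plasma cell. A total of 413 tested genes are listed at 0 in a whole library, and 19 higher and 26 lower calls are among them. On simulated counts the fit recovered 100% of 4-fold and 42% of 2-fold increases in plasma cells, 64% and 32% of decreases of the same sizes, and called 8 of 10472 unchanged genes. The simulation gave every gene the same dispersion (0.0209) and no library effect, and changed only genes above a set level in B cells. Real sums vary more from gene to gene and between libraries, so these rates need not hold for the data.

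Members and lists were chosen with earlier results of these data known. Named genes are the label's markers, the 10 highest and 10 lowest called genes with at least 20 UMIs in the higher class, and of each list the 4 largest changes and its regulators, receptors and ligands. Immunoglobulin constant genes are named from 1% of plasma cell immunoglobulin UMIs. Other genes named, such as the lone member of a list that moved against it, were chosen after their values were seen. Alternatives were DESeq2 1.42.0, other filters and totals, no block, equal cells and leaving out each library. Some genes that this rule names are not reported here.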

Additional observations from a re-analysis of the deposited data

How the results depend on the processing

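With the library taken as the replicate, counts of calls moved most with equal cells and without library 3. With no replicate block 741 genes were higher and 1114 lower than in B cells. Equal cell numbers per class left 388 higher and 367 lower of 2440 genes tested (567 and 488 against the mean of the 8 classes), and 139 list genes called. Leaving out 1 library gave 577 to 965 higher and 962 to 1286 lower (592 to 1193 and 761 to 1095 against the mean), the fewest without library 3, and 181 to 209 list genes. Fitting plasma and B cells alone gave 967 lower. The class-switched share of B cells was 15.7% at a share of 80%, 33.3% at 30 UMIs and 9.31% to 37.0% leaving out a library. The share of cells with UMIs of the cell cycle list was 1.85% of plasma and 5.52% of B cells drawn to 1000 UMIs, 1.96% and 3.74% at 5 UMIs, and 6.82% to 10.5% and 19.1% to 32.4% leaving out a library. The plasma cell share ranged from 0.315% to 0.792% leaving out a library, their immunoglobulin share from 48.4% to 58.3% and the IgA share from 16.7% to 26.3%. Single genes turned round without 1 library. Leaving out each library gave Glcci1 -0.0297 to 1.67 against B cells and -0.0279 to 1.82 against the mean of the 8 classes, Ube2c -4.41 to 4.32 against B cells and Sec31a -0.0117 to 1.18 against the mean, each lowest without library 3. Mrc1 against the mean gave -1.84 to 4.76, lowest without library 1. The cause was not tested. The 7 plasma cells of library 1 limit depth most.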

Other observations

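The authors' class B held 3 cells with over 20% immunoglobulin UMIs, at 26.8%, 53.9% and 56.1% of 3792, 868 and 2395 UMIs. The first is of library 2 and the others of library 3. None had a Ms4a1 UMI, they had 1, 3 and 12 Jchain UMIs, and the last used Igkv3-4. They were left in class B. Apoe, a lipid carrier of macrophages and glia, was at 0, 8.03 and 10.8 CPM in plasma cells and at 1015, 1085 and 462 CPM in B cells of libraries 1, 2 and 3 (log2 fold change -6.51 ± 1.08, adjusted p = 2.52e-05, edgeR). Mitochondrial genes took 4.10%, 2.87% and 1.39% of UMIs outside immunoglobulin genes in plasma cells and 5.53%, 4.18% and 1.98% in B cells.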
